A study of Mus musculus with 24 samples.

Results

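The genes described here encode the nuclear-encoded subunits of the mitochondrial respiratory chain and ATP synthase, measured in the striatum of mice with and without the Q175 allele and with and without Tyrobp. They were chosen by name from the deposited table of read counts: protein-coding rows whose symbol begins with Ndufa, Ndufb, Ndufc, Ndufs, Ndufv, Uqcr, Cox4 to Cox8 or Atp5, together with Sdha to Sdhd and Cyc1. Assembly factors named Ndufaf were dropped, as was any row with fewer than 240 reads over the 24 libraries. The names matched 87 of the 54532 rows, and 83 rows remained. By name, 38 belong to complex I, 4 to complex II, 9 to complex III, 15 to complex IV and 17 to complex V. The rule used the symbol and the total read number over all libraries, never a difference between genotypes. The 4 rows left out were Cox8b (216 reads), Cox7b2 (160 reads), Cox8c and a second row named Atp5o (0 reads each). The members nearest above the limit were Cox7a1 (435 reads), Cox6b2 (1068 reads) and Ndufa4l2 (1370 reads). All 83 members passed the filter on low counts used for testing.

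The respiratory chain sits in the inner mitochondrial membrane. Complexes I and II feed electrons from NADH and succinate to ubiquinone, complex III passes them to cytochrome c, and complex IV hands them to oxygen. Complexes I, III and IV pump protons, and complex V, the ATP synthase, uses the resulting gradient to make ATP. Complexes I, III, IV and V also contain a few subunits encoded in the mitochondrial genome, whereas complex II is encoded in the nucleus alone. Projection neurons of the striatum, the cells most affected in Huntington's disease, are sensitive to poisons of complex II.

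The series comprised 24 C57BL/6 mice of 4 genotypes with 6 animals each, 3 male and 3 female. WT animals carried neither alteration, TyrobpKO animals lacked Tyrobp, Q175 animals were heterozygous for the Q175 allele, and Q175_TyrobpKO animals were Q175 heterozygotes without Tyrobp. Q175 places an expanded CAG repeat in the mouse Huntingtin gene (Htt) to model Huntington's disease, and Tyrobp encodes a signalling adaptor used by receptors on microglia. Age was not given in the labels. RNA came from the frozen striatum of 1 hemisphere per animal and was sequenced in bulk. The animal codes carry prefixes: both genotypes lacking Tyrobp share 1 prefix, and all Q175 animals share another with WT replicate 3, so that both comparisons of Tyrobp genotypes are wholly comparisons of prefixes and Q175 against WT is partly one, whereas Q175_TyrobpKO against TyrobpKO is not. Replicate numbers only name a library.

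Libraries held 25.5 to 34.6 M counts (M, mega), and the 83 members together took 0.70% to 0.96% of them. Tyrobp lay between 0.214 and 0.448 CPM (counts per mega of TMM-scaled library size) in the 12 libraries labelled as lacking it and between 5.69 and 11.8 CPM in the other 12. Htt lay between 137 and 178 CPM in the Q175 carriers and between 188 and 236 CPM in the others. Q175 replicate 4, a female, stood apart in the members: they summed to 9589 CPM there, against 7264 to 8420 CPM in the other 11 libraries from carriers and 7206 to 8301 CPM in the 12 libraries without the allele. Its median member deviated by 0.30 on the log2 scale from the mean of the 24 libraries. Cytosolic ribosomal protein genes deviated by 0.32 in the same library. Values without that library are given for the members' counts in each comparison of the alleles in which it takes part, and for some of the single genes. Other single genes can have moved without it too.

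Levels are compared between genes per kilobase of gene length (RPKM) over all 24 libraries. For 77 of the 83 members this length was that of all annotated exons joined, so the order of genes also depends on it. The most abundant members belonged to complexes IV and V. Cox6a1 stood at 368 ± 43.7 RPKM (SD, n = 24), Cox8a at 326 ± 37.8, Atp5b, the catalytic beta subunit of the ATP synthase, at 240 ± 14.6, Atp5a1, its alpha subunit, at 232 ± 11.2 and Cox4i1 at 226 ± 18.4. Cox6a1 and Cox8a differed by about their spread, as did Atp5b, Atp5a1 and Cox4i1 among themselves, whereas Cox8a lay above Atp5b by more than the SD of either. The median member was at 35.2 RPKM in complex I, 39.7 in complex II, 55.2 in complex III, 64.1 in complex IV and 27.4 in complex V. In complex II, Sdha, the flavoprotein that oxidises succinate, was at 91.2 ± 5.34 RPKM and the membrane anchor Sdhc at 19 ± 1.27.

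**Figure D1:**
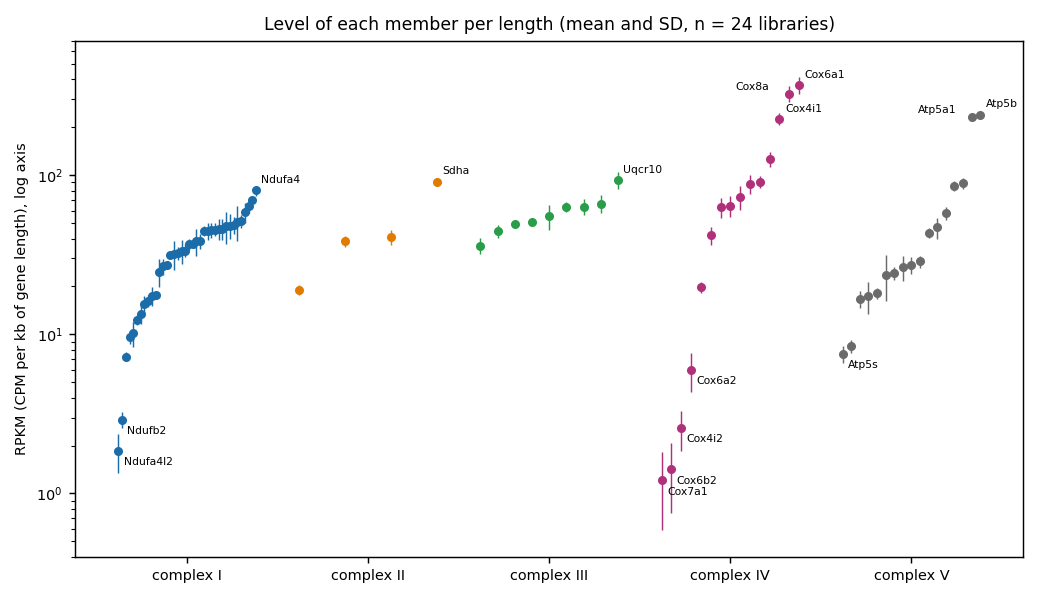
RPKM (CPM per kilobase of gene length, log axis) of each of the 83 members, ordered within its complex; points are means over the 24 libraries and bars are SDs. Cox6a1 (368), Cox8a (326) and Atp5b (240) stand highest, and the complex IV isoforms Cox7a1 (1.21) and Cox6b2 (1.42) lowest.

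Several subunits exist as tissue isoforms, and in striatum a single isoform usually dominated. Within each pair, shares were taken of summed RPKM. Cox4i1 held 98.9% of the signal of Cox4i1 and Cox4i2, Cox6a1 held 98.4% against the heart and muscle form Cox6a2, Cox6b1 held 98.9% against the testis form Cox6b2, and Cox8a held 99.7% against Cox8b. Cox7b held 99.3% against Cox7b2. Ndufa4, named for complex I but now assigned to complex IV, held 97.7%, and its hypoxia-inducible paralogue Ndufa4l2 held 2.27%. Among the Cox7a genes the supercomplex factor Cox7a2l held 58.3%, Cox7a2 held 40.9% and the muscle form Cox7a1 held 0.765%. The c ring of the ATP synthase is built from 1 mature protein encoded by 3 genes, of which Atp5g3 held 57.3%, Atp5g2 22.3% and Atp5g1 20.4%. The lengths used were 2181, 1675 and 4912 bases in that order. Undivided by length, the 3 genes had 69379, 20402 and 55254 reads over the 24 libraries. The order of Atp5g2 and Atp5g1 therefore rests on the length used. In Q175_TyrobpKO libraries the 3 shares were 59 ± 1.05%, 20.6 ± 1.06% and 20.3 ± 0.823% (SD, n = 6), and in TyrobpKO libraries they were 57.5 ± 2.86%, 23.2 ± 2.13% and 19.4 ± 1.27%. With Tyrobp present they were 56.6 ± 2.7%, 23.2 ± 2.21% and 20.2 ± 1.26% in WT and 56.1 ± 3.18%, 22.1 ± 2.18% and 21.8 ± 1.43% in Q175, so that the share of Atp5g3 was lower with the allele there and higher with it in the absence of Tyrobp, by less than the larger SD of the groups compared.

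Summed by complex, the levels of the 4 genotypes overlapped almost everywhere. The complex I sum was 2066 ± 117 CPM (SD, n = 6 for each genotype) in WT libraries, 2064 ± 102 CPM in TyrobpKO libraries, 2064 ± 248 CPM in Q175 libraries and 2156 ± 60 CPM in Q175_TyrobpKO libraries. Complex II summed to 563 ± 30.1, 555 ± 15, 587 ± 46.5 and 592 ± 11.7 CPM in the same order, and complex III to 787 ± 39.4, 799 ± 39.3, 820 ± 76.7 and 834 ± 20.2 CPM. For complex IV the sums were 1469 ± 130, 1542 ± 124, 1522 ± 214 and 1594 ± 65.1 CPM. The WT libraries ran from 2715 to 2931 CPM for complex V, the TyrobpKO libraries from 2707 to 2984 CPM, the Q175 libraries from 2724 to 3500 CPM and the Q175_TyrobpKO libraries from 2964 to 3082 CPM. The Q175_TyrobpKO libraries were the least spread of the genotypes in each complex, and the SD of Q175, with replicate 4 included, was the largest in each. Without replicate 4, Q175 libraries ran from 1868 to 2101 CPM in complex I, 758 to 827 in complex III and 1356 to 1570 in complex IV. These ranges were narrower than those of WT, at 1947 to 2242, 726 to 834 and 1282 to 1660 CPM. The sums are descriptions, and no test was made of them.

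**Figure D2:**
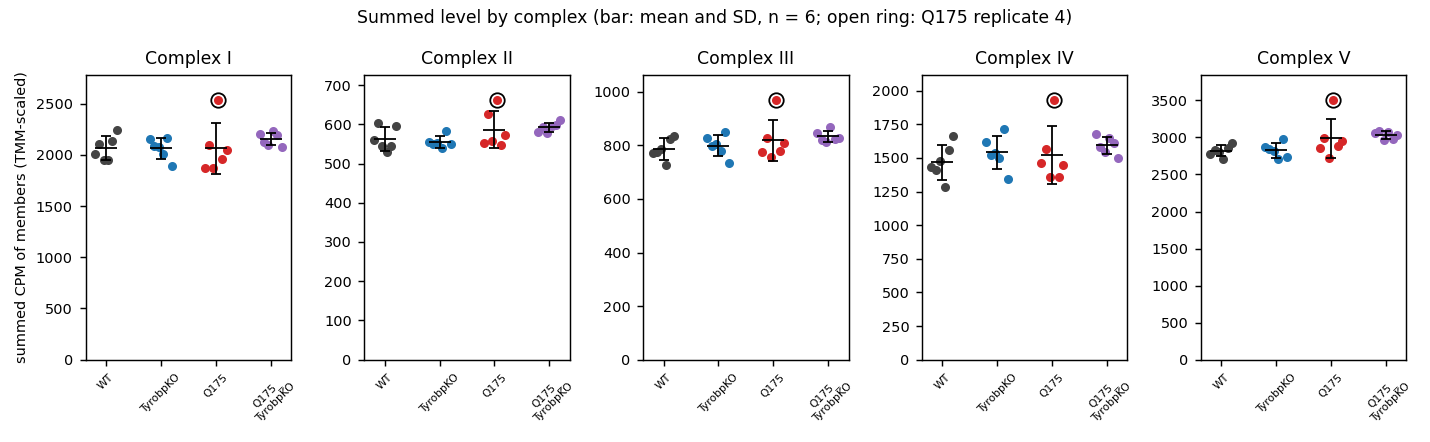
Summed CPM of the members of each complex in each library (points; bars are mean and SD, n = 6), by genotype. Q175 replicate 4, ringed, is the highest of all 24 libraries in every complex, at 2533 CPM for complex I and 3500 CPM for complex V.

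Q175 was first compared with WT, the effect of the allele with Tyrobp present. No respiratory chain subunit passed the test. By edgeR's quasi-likelihood test, with Benjamini-Hochberg adjustment over the 19667 genes tested, 0 of 83 members were called higher and 0 lower, against 9.63% of all genes tested (4.15% higher and 5.47% lower), and limma-voom also called 0. DESeq2 called 1, Cyc1. At an unadjusted edgeR p under 0.05 there were 7 members, against 22.6% of all genes. The fold changes were small: the median was 0.024 on the log2 scale (0.007 over all genes), and the median absolute change was 0.062 (0.145 over all genes). The precision allowed small limits, since 76 of 83 members had a 95% interval wholly within 0.5 of 0 and 82 within 1, with Cox7a1 as the exception. Scaling to library totals alone, which moved the median of all genes from 0.007 to 0.065, gave 8 members called higher and 0 lower. In bulk tissue, fewer cells of a type and less RNA per cell cannot be told apart.

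The direction of the members in this comparison rested on a single library. With all 24 libraries, 52 members had a positive log2 fold change and 31 a negative one. Without Q175 replicate 4, 23 were positive and 60 negative, the median was -0.038, and 2 members were called lower by edgeR. Those were Ndufs3, a core subunit of the ubiquinone-reducing arm of complex I (-0.27 ± 0.07, SE; edgeR adjusted p 0.00938), and Ndufa5, an accessory subunit of the same arm (-0.37 ± 0.09, edgeR adjusted p 0.00713). Ndufs3 was also called lower without Q175 replicate 2. In the fit without replicate 4, 9.12% of all genes were called and their median was 0.005. Cytosolic ribosomal protein genes had 13 positive and 64 negative values there (median -0.093), and mitochondrial ribosomal protein genes had 23 and 54 (median -0.041). The medians by complex, without replicate 4, changed from -0.004 to -0.069 in complex I, from 0.057 to -0.037 in complex III, from 0.043 to -0.046 in complex IV and from 0.044 to -0.024 in complex V. Complex II alone kept a positive median, 0.070 with the library and 0.020 without it.

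Within complex I, the 3 core genes of the NADH-oxidising arm had values near 0 and no call. Ndufv1, which binds NADH, had a log2 fold change of 0.10 ± 0.07 (SE, edgeR adjusted p 0.449), Ndufs1 of 0.08 ± 0.05 (0.309) and Ndufv2 of 0.01 ± 0.06 (0.944). In the ubiquinone-reducing arm, Ndufs3 (ENSMUSG00000005510, chromosome 2, 90894634 to 90904827) ranged from 67.1 to 82.4 CPM in WT (median 75.9) and from 59.2 to 80.7 CPM in Q175 (median 61.2). The groups overlapped, through the higher Q175 libraries, and the difference was -0.20 ± 0.07 (SE, edgeR adjusted p 0.0743). Ndufs7 and Ndufs8, which carry iron-sulfur clusters, had values of -0.01 ± 0.07 (edgeR adjusted p 0.942) and 0.06 ± 0.07 (0.687). Ndufa5 (ENSMUSG00000023089, chromosome 6, 24518666 to 24528013) ranged from 41.4 to 60 CPM in WT (median 47.4) and from 32.6 to 62.3 CPM in Q175 (median 38.4), a difference of -0.24 ± 0.11 (SE, edgeR adjusted p 0.206). WT libraries held 45.1 ± 3.46 CPM of Ndufs4, the accessory subunit whose loss causes Leigh syndrome, and Q175 libraries held 41.2 ± 4.68 CPM (-0.13 ± 0.07, edgeR adjusted p 0.246). The 29 accessory subunits as a group had a median of -0.007. Without Q175 replicate 4 the values were 0.03 for Ndufv1, 0.06 for Ndufs1, -0.02 for Ndufv2, -0.06 for Ndufs7, 0.01 for Ndufs8 and -0.18 for Ndufs4.

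Ndufa4l2 (ENSMUSG00000040280, chromosome 10, 127514967 to 127517154) was the only member whose Q175 and WT libraries did not overlap, against 4.08% of all genes. It ranged from 1.87 to 3.08 CPM in WT (median 2.47) and from 1.62 to 1.78 CPM in Q175 (median 1.7). All 6 Q175 libraries were low and close together. The log2 fold change was -0.52 ± 0.21 and was not called (edgeR adjusted p 0.121). In Q175_TyrobpKO the gene ranged from 0.726 to 2.74 CPM and in TyrobpKO from 1.78 to 2.95 CPM, overlapping, with a difference of -0.48 ± 0.21 (SE, edgeR adjusted p 0.205). Ndufa4l2 is known from pericytes and mural cells. Of the 7 mural cell markers examined, 0 were called in Q175 against WT and all 7 had a negative value, with sums of 211 to 230 CPM in WT and 196 to 220 CPM in Q175. In Q175_TyrobpKO against TyrobpKO, 1 of the 7, Rgs5, was called lower (-0.26 ± 0.07, edgeR adjusted p 0.0302), with sums of 191 to 220 CPM against 210 to 244 CPM. Pdgfrb and Rgs5 were detected in all genotypes, and the part of these cells in the Ndufa4l2 values was not tested.

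Complex II, the target of striatal toxins, gave no call. WT libraries held 370 ± 23.3 CPM of Sdha and Q175 libraries 383 ± 28.3 CPM, a log2 fold change of 0.05 ± 0.05 with a 95% interval of -0.06 to 0.16 (edgeR adjusted p 0.645). The iron-sulfur subunit Sdhb had a value of 0.04 ± 0.06 (edgeR adjusted p 0.762). Of the membrane anchors, Sdhc stood at 59.6 ± 2.98 CPM in WT libraries and 64.6 ± 5.07 CPM in Q175 libraries (0.12 ± 0.06, edgeR adjusted p 0.212), and Sdhd had a value of 0.09 ± 0.08 (0.588). All 4 values were positive and none was called. The values without Q175 replicate 4 were 0.02 for Sdha, -0.01 for Sdhb, 0.08 for Sdhc and 0.02 for Sdhd.

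In complex III, Cyc1 (ENSMUSG00000022551, chromosome 15, 76343523 to 76346260), which encodes cytochrome c1, came nearest to a call. It ranged from 72.8 to 98.4 CPM in WT (median 89.6) and from 94.7 to 114 CPM in Q175 (median 99.2). The ranges overlapped, between 94.7 and 98.4 CPM. On the log2 scale the difference was 0.19 ± 0.06 (SE, edgeR adjusted p 0.0551). The Rieske protein gene Uqcrfs1 had a value of 0.10 ± 0.05 (edgeR adjusted p 0.273), and the core protein gene Uqcrc1 by 0.09 ± 0.05 (0.314). Cyc1 was called without WT replicate 2 or 6, TyrobpKO replicate 5 or 6 or Q175 replicate 3, each of which left out 1 library. Without Q175 replicate 4 it moved away from a call, to 0.15 ± 0.06 (edgeR adjusted p 0.141). The small subunits Uqcrb (-0.13 ± 0.08, edgeR adjusted p 0.391) and Uqcr11 (-0.07 ± 0.14, 0.824) had negative values. Leaving out Q175 replicate 4 gave -0.18 ± 0.08 for Uqcrb, -0.23 ± 0.11 for Uqcr11, 0.05 ± 0.05 for Uqcrfs1 and 0.07 ± 0.05 for Uqcrc1.

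No complex IV member was called in Q175 against WT. Cox6a1 ranged from 188 to 271 CPM in WT (median 235) and from 225 to 310 CPM in Q175 (median 261), overlapping (0.16 ± 0.09, edgeR adjusted p 0.306). Cox4i1 had a value of 0.05 ± 0.07 (0.711), Cox6b1 by 0.08 ± 0.08 (0.639), Cox5b by -0.05 ± 0.14 (0.876), Cox7a2 by -0.03 ± 0.12 (0.924), Cox7a2l by 0.02 ± 0.07 (0.934) and Cox8a by -0.02 ± 0.09 (0.949), all by edgeR adjusted p. Without Q175 replicate 4, Cox4i1 turned to -0.02, Cox6b1 to -0.01, Cox7a2l to -0.07 and the scarce Cox6a2 to -0.09. In the same fit Cox5b was at -0.17, Cox7a2 at -0.12, Cox8a at -0.08 and Cox6a1 at 0.10. The scarce isoforms were measured less well: Cox4i2 had a value of -0.36 ± 0.21 (edgeR adjusted p 0.34), Cox6a2 by 0.04 ± 0.21 (0.951), Cox6b2 by 0.12 ± 0.39 (0.904) and Cox7a1 by 0.20 ± 0.44 (0.843).

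In complex V, with all libraries, 14 of 17 members were on the positive side and none was called. That lean rested on Q175 replicate 4, without which the median of the complex was -0.024. Atp5b ranged from 932 to 1003 CPM in WT (median 971) and from 944 to 1191 CPM in Q175 (median 1049), a difference of 0.12 ± 0.05 (SE, edgeR adjusted p 0.15). WT libraries held 76.8 ± 6.08 CPM of Atp5g1 and Q175 libraries 87.7 ± 10.3 CPM (0.19 ± 0.07, edgeR adjusted p 0.0723). The gamma subunit gene Atp5c1 had a value of 0.12 ± 0.06 (edgeR adjusted p 0.237), the delta subunit gene Atp5d by -0.03 ± 0.08 (0.87), and Atp5s, which encodes factor B rather than a structural subunit, by 0.18 ± 0.10 (0.275). Atp5g1 was called without Q175 replicate 5. Without Q175 replicate 4, Atp5b was at 0.08 ± 0.05, Atp5g1 at 0.13 ± 0.06, Atp5c1 at 0.08 ± 0.06, Atp5d at -0.12 ± 0.06 and Atp5s at 0.16 ± 0.10 on the log2 scale.

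**Figure D3:**
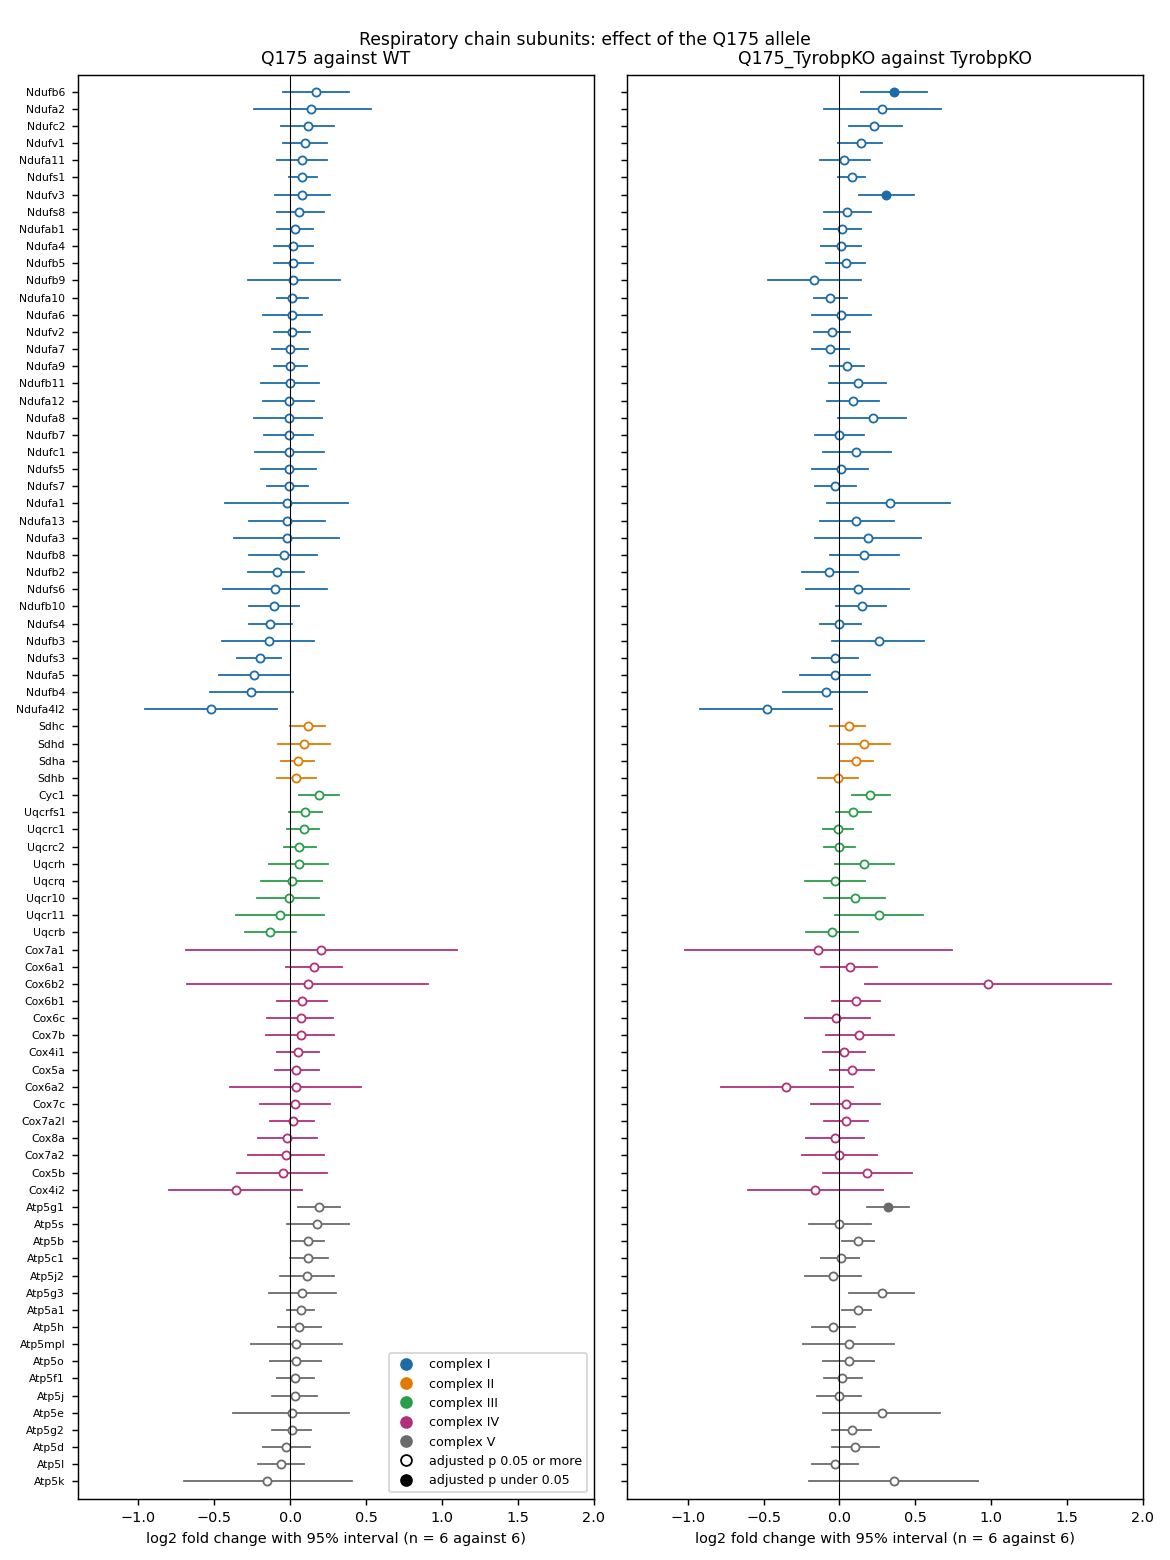
Log2 fold change with 95% interval of each member shown in Q175 against WT (left) and Q175_TyrobpKO against TyrobpKO (right), n = 6 against 6, coloured by complex and ordered within it by the left panel. Filled points passed an edgeR adjusted p of 0.05: none on the left, and Ndufb6 (0.36), Ndufv3 (0.31) and Atp5g1 (0.32) on the right.

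In the absence of Tyrobp, 3 subunits were called higher with the Q175 allele. Atp5g1, Ndufb6 and Ndufv3 rose in Q175_TyrobpKO against TyrobpKO, and 0 members fell, against 5.86% of all genes called (2.78% higher and 3.08% lower). limma-voom called 3 members and DESeq2 5, adding Cyc1 and Atp5a1. At an unadjusted p under 0.05 there were 11 of 83, against 18.4% of all genes. The median member was at 0.056 on the log2 scale (-0.002 over all genes), with 58 positive and 25 negative. By complex the medians were 0.050 (I), 0.085 (II), 0.094 (III), 0.040 (IV) and 0.062 (V). Groups did not overlap for 7 members, Ndufb6, Ndufv3, Cyc1, Cox6b2, Atp5a1, Atp5b and Atp5g1, against 4.49% of all genes. Scaling to library totals called 9 members higher, and a fit of only the 12 libraries compared called 10. None was called in males alone or in females alone, where each group has 3 libraries. Leaving out TyrobpKO replicate 3, or Q175_TyrobpKO replicate 4, left Atp5g1 as the only call.

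Atp5g1 (ENSMUSG00000006057, chromosome 11, 96068852 to 96075670, minus strand) encodes a precursor of the c ring subunit, through which protons turn the ATP synthase rotor. It ranged from 68.1 to 79.1 CPM in TyrobpKO (median 72.3) and from 83.2 to 97 CPM in Q175_TyrobpKO (median 90.2). Every Q175_TyrobpKO library was above every TyrobpKO library, and the rise was 0.32 ± 0.07 (95% interval 0.18 to 0.46, edgeR adjusted p 0.00439). Atp5g3, the most abundant c ring gene, ranged from 87.4 to 110 CPM and from 108 to 131 CPM in the same groups, which overlapped slightly (0.28 ± 0.11, edgeR adjusted p 0.14). Atp5g2 had a value of 0.08 ± 0.06 (0.575). Reads of the 3 genes can be shared with each other and with processed pseudogenes, so the split between them is uncertain.

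Ndufb6 (ENSMUSG00000071014, chromosome 4, 40270591 to 40279421, minus strand) encodes an accessory subunit of the membrane arm of complex I. It ranged from 17.5 to 20.4 CPM in TyrobpKO (median 19.7) and from 21.1 to 28.8 CPM in Q175_TyrobpKO (median 24.1). All 6 libraries of Q175_TyrobpKO were the higher ones, and the rise was 0.36 ± 0.11 (edgeR adjusted p 0.0432). The call lay near the threshold. It was lost in 11 of 35 alternatives, among them leaving out TyrobpKO replicate 3, 4, 5 or 6, Q175 replicate 6 or Q175_TyrobpKO replicate 1, 4 or 5, with the estimate between 0.20 and 0.53 throughout. Ndufv3 (ENSMUSG00000024038, chromosome 17, 31520115 to 31531326, plus strand) encodes the small accessory subunit of the flavoprotein part of complex I. It ranged from 31.4 to 37.6 CPM in TyrobpKO (median 35.4) and from 38.8 to 47.7 CPM in Q175_TyrobpKO (median 43.2), without overlap (0.31 ± 0.09, edgeR adjusted p 0.0282). Its call was lost in 6 of 35 alternatives, including those without TyrobpKO replicate 3 or 4 or Q175_TyrobpKO replicate 3 or 4.

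**Figure D4:**
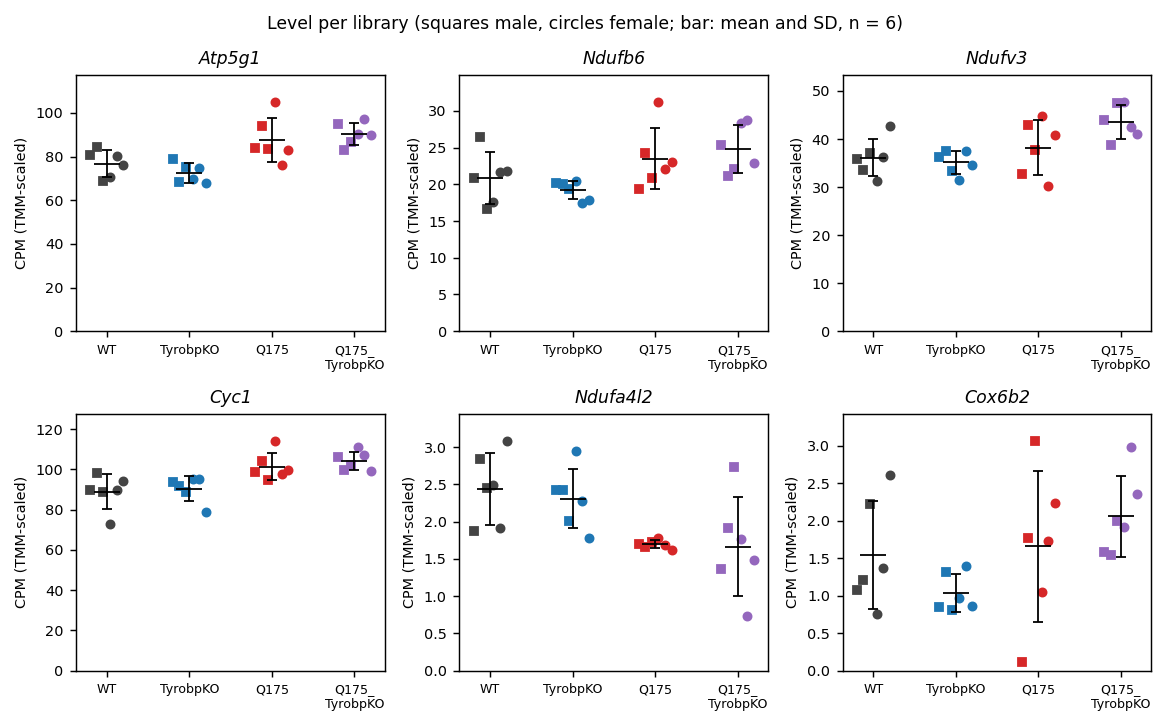
CPM of 6 members in each library (squares male, circles female; bars are mean and SD, n = 6) by genotype, with axes from 0. Atp5g1, Ndufb6 and Ndufv3 do not overlap between TyrobpKO and Q175_TyrobpKO, and Ndufa4l2 lies between 1.62 and 1.78 CPM in all 6 Q175 libraries.

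The sequences upstream of the 3 called genes are shown because these members passed the test in Q175_TyrobpKO against TyrobpKO. That of Cox6a1, the most abundant member, is shown for comparison. They come from RefSeq on GRCm38.p6, read 5′ to 3′ on the gene's strand, from the 250 bases before the annotated start, cut to the longest stretch outside every gene span of the deposited table. Capitals mark matches, on either strand, to the palindromic motif of nuclear respiratory factor 1 (NRF1; the run of capitals nearest the 5′ end of the Cox6a1 stretch), CCGGAAG (the ETS factor GABP), AAGATGGC (YY1), GGGCGG (SP1) or CCAAT (NF-Y). Where CCAAT and its reverse complement overlap, the capitals run on.
Atp5g1, chr11:96075671-96075881, minus strand: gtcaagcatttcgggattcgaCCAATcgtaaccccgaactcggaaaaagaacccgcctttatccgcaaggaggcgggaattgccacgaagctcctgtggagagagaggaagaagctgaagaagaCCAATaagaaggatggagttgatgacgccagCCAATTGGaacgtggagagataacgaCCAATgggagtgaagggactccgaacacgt
Ndufb6, chr4:40279422-40279671, minus strand: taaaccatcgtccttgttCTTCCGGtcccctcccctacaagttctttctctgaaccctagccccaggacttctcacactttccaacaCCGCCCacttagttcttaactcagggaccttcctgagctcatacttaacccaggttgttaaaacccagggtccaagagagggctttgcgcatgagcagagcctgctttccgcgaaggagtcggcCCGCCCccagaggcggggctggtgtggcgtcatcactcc
Ndufv3, chr17:31519975-31520114, plus strand: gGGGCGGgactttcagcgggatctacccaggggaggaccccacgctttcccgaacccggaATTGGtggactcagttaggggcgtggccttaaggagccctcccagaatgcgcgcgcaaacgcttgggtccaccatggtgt
Cox6a1, chr5:115348982-115349129, minus strand: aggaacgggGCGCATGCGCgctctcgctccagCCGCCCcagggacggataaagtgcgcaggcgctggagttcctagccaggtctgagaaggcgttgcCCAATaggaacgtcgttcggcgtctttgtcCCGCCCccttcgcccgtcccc

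No motif of this set stood in the printed stretches of all 3 called genes. The stretch before Atp5g1 held 5 CCAAT matches and none of the other motifs, that before Ndufb6 held 1 GABP and 2 SP1 matches, and that before Ndufv3 held 1 SP1 and 1 CCAAT match. Of the 83 members, 65 had a RefSeq entry, with 70 windows of 250 bases. The NRF1 motif stood in 5.71% of the member windows (Atp5g2, Atp5k, Cox6a1 and Ndufa11) and in 0.782% of all 32851 windows. The GABP motif stood in 17.1% of the member windows and 6.91% of all, the CCAAT motif in 41.4% and 33.8%, the SP1 motif in 32.9% and 32.7%, and the YY1 motif in 1.43% and 1.56%. A match describes letters in a window and says nothing of binding.

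Among the members not called in Q175_TyrobpKO against TyrobpKO, Cyc1 ranged from 78.8 to 95.3 CPM in TyrobpKO and from 99.3 to 111 CPM in Q175_TyrobpKO, without overlap (0.20 ± 0.06, edgeR adjusted p 0.0513). Atp5b (0.12 ± 0.05, edgeR adjusted p 0.154) and Atp5a1 (0.12 ± 0.04, 0.142) did not overlap either. The testis isoform Cox6b2, at 0.812 to 1.4 CPM in TyrobpKO and 1.54 to 2.98 CPM in Q175_TyrobpKO, had the largest value of all members (0.98 ± 0.39, edgeR adjusted p 0.162). In complex II, Sdha had a value of 0.11 ± 0.05 (0.229) and Sdhd by 0.16 ± 0.08 (0.315). The membrane arm subunit Ndufc2 had a value of 0.23 ± 0.08 (edgeR adjusted p 0.116), Uqcr11 by 0.26 ± 0.14 (0.334) and Cox6a2 by -0.35 ± 0.21 (0.408). The Q175 comparisons with and without Tyrobp share no library. In them, 51 of 83 members (61.4%) had the same sign, 39 of these positive, against 69.4% of all genes.

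Whether the effect of the allele on a member depended on Tyrobp was tested by the interaction. edgeR called 0 of 83 members and 0% of all genes, DESeq2 and limma-voom called 0 members, and 1 member, Ndufb10, had an unadjusted p under 0.05, against 3.59% of all genes. Without Q175 replicate 4, edgeR still called 0 members, but 16 had an unadjusted p under 0.05, against 4.57% of all genes, with 68 positive and 15 negative and a median of 0.100 (54, 29 and 0.035 with the library). In that fit 77 mitochondrial ribosomal protein genes had 61 positive and 16 negative, a median of 0.084 and 1 at an unadjusted p under 0.05. For 77 cytosolic ribosomal protein genes these were 52, 25, 0.074 and 4. For Ndufv3 the interaction was 0.23 ± 0.12, with a 95% interval of -0.02 to 0.48 (edgeR adjusted p 0.999), for Ndufb6 0.19 ± 0.15 (-0.12 to 0.51) and for Atp5g1 0.12 ± 0.10 (-0.07 to 0.32). Calls in 1 Tyrobp background and not in the other are thus not shown to differ between them.

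The effect of the allele was also averaged over the Tyrobp genotypes, a contrast chosen after these values had been seen. That no interaction was called does not show the effect to be the same in both Tyrobp genotypes. It called 7 members higher and 1 lower, against 18% of all genes (8.85% higher and 9.17% lower), and 16 had an unadjusted p under 0.05, against 29.7% of all genes. Atp5g1 rose by 0.25 ± 0.05 (edgeR adjusted p 0.000323), Cyc1 by 0.20 ± 0.04 (0.00214), Ndufb6 by 0.26 ± 0.08 (0.0151), Atp5b by 0.12 ± 0.04 (0.016), Ndufv3 by 0.20 ± 0.06 (0.0239), Atp5a1 by 0.09 ± 0.03 (0.0394) and Ndufc2 by 0.18 ± 0.06 (0.0418). Ndufa4l2 fell by 0.50 on the log2 scale (SE 0.15, edgeR adjusted p 0.0179). Without Q175 replicate 4, the calls were 5 higher and 3 lower: Atp5a1 and Ndufc2 were not called, and Ndufs3 and Ndufa5 were called lower.

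No member was called in the comparisons of Tyrobp genotypes, which are also comparisons of animal-code prefixes throughout. In TyrobpKO against WT, edgeR, DESeq2 and limma-voom called 0 of 83, against 0.117% of all genes by edgeR (0.0458% higher and 0.0712% lower), and 0 had an unadjusted p under 0.05 (6.45% of all genes). The median was 0.010, and 75 of 83 intervals lay within 0.5 of 0. The members of smallest p were Ndufb2 (-0.17 ± 0.09), Cox6a2 (0.38 ± 0.21), Uqcrc1 (0.06 ± 0.05), Atp5c1 (0.08 ± 0.06) and Sdha (-0.04 ± 0.05) in their complexes, with edgeR adjusted p from 0.749 to 0.894. The largest negative value was that of Cox6b2, -0.58 ± 0.40. Cox7a1 and Cox6b1 lie within 0.23 megabases of Tyrobp on chromosome 7, and had values of 0.43 ± 0.43 (edgeR adjusted p 0.842) and 0.03 ± 0.08 (0.947).

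Q175_TyrobpKO against Q175 likewise gave 0 calls by edgeR, DESeq2 and limma-voom, against 0.158% of all genes by edgeR (0.0458% higher and 0.112% lower), and 1 member at an unadjusted p under 0.05, Ndufv3 (0.19 ± 0.09, edgeR adjusted p 0.818), against 6.04% of all genes. With all libraries, 63 members were positive and 20 negative, with a median of 0.049. The direction differed between the sexes fitted alone: males gave 74 positive and 9 negative with a median of 0.104, and females 37 and 46 with a median of -0.022. That difference was not tested. The female fit includes Q175 replicate 4 among its 3 Q175 libraries and was not repeated without it, so sex and that library cannot be told apart. The animal-code prefixes differ throughout between these genotypes, so that prefix and Tyrobp genotype cannot be told apart here. Complex I had the highest median, 0.078. Uqcr11 (0.26 ± 0.14), Cox5b (0.25 ± 0.14), Atp5d (0.15 ± 0.08) and Sdhc (-0.05 ± 0.06) had the smallest p in the other complexes. When Q175 replicate 4 was left out, these 4 were at 0.42 ± 0.11, 0.37 ± 0.13, 0.24 ± 0.06 and -0.01 ± 0.05, and the complex I median was 0.158. Without Q175 replicate 4 there were 74 positive and 9 negative, a median of 0.120 and 27 members at an unadjusted p under 0.05 (8.72% of all genes), still with 0 calls. The shift was not particular to the members. In that fit 77 cytosolic ribosomal protein genes had 72 positive and 5 negative, a median of 0.132 and 29 at an unadjusted p under 0.05. For 77 mitochondrial ribosomal protein genes these were 61, 16, 0.062 and 11.

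Short members varied more between libraries of a genotype than long ones. The SD of log2(CPM + 0.5) within a genotype had a median of 0.217 in the 28 shortest members (419 to 1131 bases), 0.147 in the 27 of middle length and 0.112 in the 28 longest (2147 to 8086 bases). Across the 83 members the Spearman correlation of this SD with gene length was -0.66, and -0.58 among the 68 with at least 20000 reads. These points share libraries, and short genes also had fewer reads. The steadiest members were Atp5a1 (0.051), Ndufs1 (0.066) and Atp5b (0.066), and the most variable were Cox6b2 (0.542), Atp5k (0.440) and Cox7a1 (0.436). After genotype means were removed, the median correlation between pairs of members over the 24 libraries was 0.46. In Q175 replicate 4 the shortest members deviated by 0.40, the longest by 0.24 and cytosolic ribosomal proteins by 0.32. For the next values, genotype means were again removed. Over the 24 libraries the remaining deviation of the shortest members followed that of the ribosomal proteins with a Pearson correlation of 0.85 (Spearman 0.71). That of the longest members did so with 0.88 (Spearman 0.77), so that this relation was not particular to short genes. Q175 replicate 4 was among these libraries, and no correlation was taken without it. RNA integrity was not given in the labels, and its part in this was not tested.

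**Figure D5:**
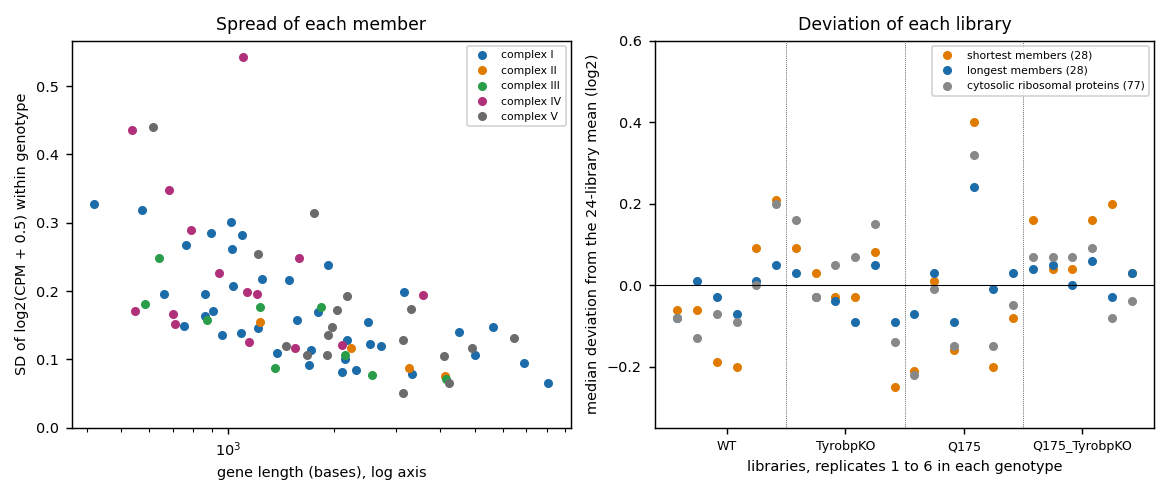
Left: SD of log2(CPM + 0.5) within genotype against gene length (log axis) for each member, coloured by complex; the median falls from 0.217 in the shortest members to 0.112 in the longest. Right: median deviation of each library from the 24-library mean (log2) for the shortest and longest members and for cytosolic ribosomal proteins, which are all highest in Q175 replicate 4, at 0.40, 0.24 and 0.32.

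The sexes, balanced in each genotype, were compared last among the members. For females minus males, edgeR called 0 of 83 members, against 0.0814% of all genes (0.0458% higher and 0.0356% lower). At an unadjusted p under 0.05 there was 1 member, Ndufc1 (0.17, edgeR adjusted p 0.999), against 4.05% of all genes. The signs leaned to females, with 74 positive and 9 negative and a median of 0.049, but this rested on the female Q175 replicate 4: without it 49 were positive and 34 negative, with a median of 0.006.

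The counts in the lists that follow stand beside 9.63% of all genes called for the allele with Tyrobp present and 5.86% in its absence, and no difference between lists was tested. Of 44 assembly factors, 0 were called in Q175 against WT and 1 was called lower in Q175_TyrobpKO against TyrobpKO: Lyrm7, which helps insert the Rieske protein into complex III (-0.39 ± 0.09, edgeR adjusted p 0.00771; -0.27 ± 0.09 and 0.06 in Q175 against WT). Bcs1l, which acts at the same step, had a value of -0.23 ± 0.08 in Q175 against WT (edgeR adjusted p 0.0652). Of 18 genes of the citric acid cycle, Idh3a, a subunit of isocitrate dehydrogenase, rose from 155 ± 9.97 to 185 ± 14.3 CPM (0.26 ± 0.05, edgeR adjusted p 0.00241) and the pyruvate dehydrogenase gene Pdha1 from 135 ± 6.79 to 150 ± 6.7 CPM (0.15 ± 0.05, edgeR adjusted p 0.0461) in Q175, and 0 were called without Tyrobp, at 0.14 ± 0.05 for both (0.132 and 0.0788). Of 17 regulators of mitochondrial biogenesis, Gabpb2 fell by 0.23 on the log2 scale (SE 0.06, edgeR adjusted p 0.0184), and Ppargc1b had a value of -0.31 ± 0.13 (edgeR adjusted p 0.144). Of 18 outer membrane and import genes, the porin gene Vdac3 rose (0.17 ± 0.05, edgeR adjusted p 0.0337), and of 77 mitochondrial ribosomal proteins Mrps17 fell by 0.22 (SE 0.06, edgeR adjusted p 0.024). None of these 3 lists had a call in Q175_TyrobpKO against TyrobpKO. When Q175 replicate 4 was left out, Pdha1 (0.14, edgeR adjusted p 0.0779) and Vdac3 (0.14, 0.0889) were not called in Q175 against WT, Lyrm7 (-0.30, 0.0483) and Bcs1l (-0.30, 0.017) were called lower, and Idh3a, Gabpb2 and Mrps17 were called as before.

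Glycolysis had 2 of 16 genes called with Tyrobp present and 3 in its absence. Among them, Gpi1, the isomerase that makes fructose 6-phosphate, rose between 450 ± 23.4 CPM (WT libraries) and 550 ± 33.6 CPM (Q175 libraries; 0.29 ± 0.05, edgeR adjusted p 0.000348) and from 473 ± 19.1 in TyrobpKO to 566 ± 23.5 CPM in Q175_TyrobpKO (0.26 ± 0.05, edgeR adjusted p 0.00181). The astrocyte aldolase Aldoc fell by 0.23 (SE 0.07, edgeR adjusted p 0.023) and by 0.22 (SE 0.07, edgeR adjusted p 0.0401). The pyruvate kinase gene Pkm rose in Q175_TyrobpKO against TyrobpKO (0.18 ± 0.05, edgeR adjusted p 0.029) and had a value of 0.08 ± 0.05 (0.328) in Q175 against WT. The list medians were 0.064 and 0.062, and without Q175 replicate 4 the former was 0.015, with Gpi1 and Aldoc called as before.

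None of the 13 subunits encoded in the mitochondrial genome was called in either Q175 comparison by edgeR. In Q175 against WT, 0 were called, 7 were positive and 6 negative, with a median of 0.044 (-0.003 without Q175 replicate 4). In Q175_TyrobpKO against TyrobpKO, 0 were called, and 12 of 13 were negative with a median of -0.189, whereas the nuclear members had a median of 0.056. The difference between the lists was not tested. The smallest p belonged to mt-Nd2, at 3574 ± 613 CPM in TyrobpKO and 2769 ± 370 CPM in Q175_TyrobpKO (-0.36 ± 0.11, edgeR adjusted p 0.0575), and mt-Nd4l was at -0.26 ± 0.15 (0.358). At an unadjusted p under 0.05 there were 3 of the 13.

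Several cell type markers changed in the same libraries. Of 15 markers of striatal projection neurons, 13 fell in Q175 against WT (median -0.703; 10 without Q175 replicate 4, median -0.692) and 6 in Q175_TyrobpKO against TyrobpKO (median -0.477). Their sums ran from 9099 to 14248 CPM in WT, 8472 to 13639 in TyrobpKO, 6150 to 8165 in Q175 and 5328 to 8409 in Q175_TyrobpKO. Scn4b fell from 1740 ± 246 to 696 ± 110 CPM (-1.33 ± 0.14, edgeR adjusted p 1.22e-06). Over the same libraries the pan-neuronal list of 11 genes had 0 calls in both comparisons, with medians of 0.002 and -0.048. Among 7 astrocyte markers, Slc1a2 fell in both comparisons by 0.37, S100b rose in Q175 against WT, and Slc1a3 fell without Tyrobp. The oligodendrocyte marker Mobp fell by 0.47 in Q175_TyrobpKO against TyrobpKO and had a value of -0.30 ± 0.11 in Q175 against WT (edgeR adjusted p 0.0935). Of 6 endothelial markers, Ly6c1 fell in Q175 against WT by 0.36 and 2 were called lower without Tyrobp, and 0 of 8 microglial markers were called in either. Choroid plexus markers were uneven: all 8 were positive in both comparisons (medians 2.839 and 1.699), 1 was called (Ttr, in Q175 against WT; 5 without Q175 replicate 4), and their sum was 4152 CPM in Q175 replicate 3 and 25.3 to 594 CPM in the other 23 libraries. The defining markers of striatal projection neurons were present in every library. Summed cortical neuron markers ranged from 50.7 to 952 CPM over the 24 libraries, with 0 of 7 called. The part of cell composition in the members' values was not tested.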

How the data were processed

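RNA-seq of striatum from 24 mice was analysed, 1 library per animal code in the labels. The authors deposited raw read counts per gene with gene names, positions and lengths. Per the submitters' processing notes, STAR, featureCounts, DESeq2 and the build GRCh38 were named without version, role or order. GRCh38 is a human build. Of the deposited mouse gene identifiers, 54495 were found in GENCODE M21 (GRCm38), 53585 of them (98.3%) at identical coordinates, as were 77 of the 83 members. Strand use is not given in the sources used here, so reads shared with overlapping genes, paralogues or pseudogenes are uncertain.

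Counts as deposited were fitted in edgeR 4.0.16 (R 4.3.3) by its quasi-likelihood test with TMM scaling, filterByExpr and robust dispersion. The model, over all 24 libraries, had genotype means plus an additive sex effect. The filter left 19667 genes, and the biological coefficient of variation was 16.2%. P-values were adjusted over all genes by the Benjamini-Hochberg method and called under 0.05, and fold changes carry standard errors. Totals of 25.5 to 34.6 M counts gave a median 95% half-width of 0.17 (log2) per member. RPKM divides TMM-scaled CPM by the deposited gene length, and a pseudocount of 0.5 CPM was used for spreads. The fit was also run on simulated data in which genes varied independently, so that shifts shared by a whole library were not covered.

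Alternatives were DESeq2 1.42.0, limma-voom (limma 3.58.1), other scalings, no filter, no sex term, fewer libraries, a length trend removed, and each library left out. The members named are those of smallest p in each complex and contrast, the paralogue sets and the rows nearest the read limit; other lists give their 2 genes of smallest p in Q175 against WT. Further genes are named because they were called, did not overlap, or fill a role. Members and lists were chosen with earlier results of these data known. The averaged contrast and the CCAAT motif were added after values had been seen. Values of 1 member and 1 marker gene are not reported here singly.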

Additional observations from a re-analysis of the deposited data

Results flagged for a closer look

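Within each genotype of 6 libraries, the members' sums and the named members were examined for a highest or lowest library set far from the rest, by the ratio of its gap to the group's range (Dixon's 95% limit for 6 values). Of 168 groups examined, 20 held such a library, where chance alone gives about 1 in 20 groups. Of the 20, 10 were in Q175 replicate 4, which was highest for the sum of all members (9589 CPM), of complex I (2533 CPM), complex III (968 CPM), complex IV (1928 CPM) and complex V (3500 CPM), and for Atp5d (140 CPM), Atp5g2 (36.9 CPM), Cox6b1 (117 CPM), Cox7a2l (132 CPM) and Ndufa4 (133 CPM).

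TyrobpKO replicate 5 was highest for complex II (584 CPM), Cox8a (230 CPM) and Sdha (382 CPM). TyrobpKO replicate 6 was lowest for Ndufa5 (42.7 CPM) and Uqcrc1 (184 CPM), and TyrobpKO replicate 3 was lowest for Ndufs3 (63.3 CPM). Q175_TyrobpKO replicate 5 was highest for Cox5b (157 CPM) and lowest for Cox7a2l (91.7 CPM), and Q175_TyrobpKO replicate 2 was highest for Atp5s (17.9 CPM). WT replicate 4 was lowest for Cyc1 (72.8 CPM).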

How the results depend on the processing

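Members called higher in Q175 against WT numbered 0 and became 1 with DESeq2, upper-quartile scaling or no sex term, 2 with a length trend removed, 8 with library totals and 0 to 1 with a library left out; members called lower were 0 to 2 with a library left out (1 without Q175 replicate 2, 2 without Q175 replicate 4). In Q175_TyrobpKO against TyrobpKO the 3 higher calls became 5 with DESeq2, 9 with library totals, 10 with only the 12 libraries compared, 0 in males alone and in females alone, and 1 to 4 with a library left out, and the median became 0.114 with library totals. In TyrobpKO against WT, males alone gave 1 higher call (Ndufb9) and females alone a median of -0.069, with Sdha reversed to 0.02 in females alone. Averaged over Tyrobp genotypes, the 7 higher calls became 18 with library totals, 11 with a length trend removed, 0 in males alone and 3 in females alone; the 1 lower call became 0 in each sex alone and 1 to 3 with a library left out. Leaving out libraries in turn moved Cox4i1 in Q175 against WT between -0.02 and 0.09, Cox6b1 between -0.01 and 0.12 and Sdhb between -0.01 and 0.08, each reversed without Q175 replicate 4. Cox7a2l (-0.07) and Cox6a2 (-0.09) were also reversed without that library. Single-sex fits have fewer samples; other causes were not tested. No paired analysis was possible because the replicate numbers carry no pairing. With 3 libraries per sex and genotype, and members such as Cox7a1 at 435 reads in all, depth and sample number limit the scarce isoforms most.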
